A study of Mus musculus with 12 samples.

Results

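The Polycomb repressive complexes are chromatin enzymes that keep developmental genes silent. Here 10 of their genes were followed by symbol, namely Ezh1, Ezh2, Eed, Suz12, Jarid2 and Mtf2 of complex PRC2, and Ring1, Rnf2, Pcgf6 and Cbx7 of complex PRC1. All 10 were found among the 22462 genes counted, all passed the filter on low counts, and none shared counted sequence with another gene. Mouse embryonic stem cells (ESCs) and the epiblast-like cells (EpiLCs) made from them were compared by ribosome profiling, which sequences ribosome protected footprints (RPFs), and by sequencing of total RNA. Each cell type and assay had 3 libraries, 12 in all. The question was whether translation changes together with mRNA in the ESC to EpiLC transition.

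ESCs were kept naive in medium with fetal bovine serum, LIF and 2i, which is the MEK inhibitor PD0325901 with the GSK3 inhibitor CHIR99021. EpiLCs were the same cells collected about 56 h after LIF and 2i were taken away. Both carried reporters of miR-290 (mCherry) and miR-302 (GFP), and the cells came from 1 parental ESC line. Total counts ran from 11491044 to 13477432 in ESC total RNA, from 6188838 to 14655015 in EpiLC total RNA, from 4777262 to 11359352 in ESC RPF and from 2681439 to 5413144 in EpiLC RPF. The study calls its replicates biological, while the labels only number them, and the p-values measure the spread between these libraries.

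The labels were checked against markers. The naive markers Zfp42, Esrrb and Klf4 fell and the primed markers Dnmt3b, Otx2 and Fgf5 rose in both assays (3 of 3 of each list). Of all genes tested, 30.7% fell and 34.6% rose in total RNA, and 28.7% and 31.1% in RPF. The 4 fibroblast markers summed to 1.94 to 2.23 CPM in ESC total RNA and to 8.82 to 11.8 CPM in EpiLC total RNA, and both that could be tested, Col1a1 and Thy1, rose. The 3 extraembryonic endoderm markers summed to 2.74 to 3.71 and 12 to 18.9 CPM, and of the tested ones Dab2 rose while Pdgfra did not pass. Fgf5, Col1a1, Thy1 and Dab2 met the filter of at least 3 CPM in at least 3 libraries only with their EpiLC libraries. They were thus tested through the cell type where they were high. Col3a1 had 0 counts in all ESC RPF libraries, and no other of these markers was at 0 throughout a group. The part of such cells in the Polycomb results was not tested. In bulk samples, fewer cells of a type and less RNA per cell cannot be told apart.

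PRC2 adds methyl groups to lysine 27 of histone H3. Its core joins an enzyme (Ezh2 or Ezh1) to Eed, which binds the methyl mark, and to the scaffold Suz12, while accessory subunits such as Jarid2 and Mtf2 guide it to CpG-rich DNA and define alternative forms. PRC1 adds ubiquitin to histone H2A through Rnf2 or Ring1, paired with a Pcgf protein, and in its canonical form a Cbx protein such as Cbx7 reads the PRC2 mark. Both complexes are known for holding lineage genes silent in pluripotent cells.

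CPM is the count of a gene scaled to a common library size with TMM factors. Changes are log2 values of EpiLC over ESC from voom and limma, given with the standard error (SE), and adjusted p-values are Benjamini-Hochberg values over all 11750 genes tested. A gene rose or fell where the adjusted p was below 0.05, and it is said to be past the fold limit where the log2 change also exceeded 1 in size. The mRNA change is that of total RNA. Translational efficiency (TE) is RPF over total RNA, and its change was tested as the interaction of assay and cell type.

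In total RNA, 6 of the 10 genes fell and 2 rose in EpiLCs, so that 8 of 10 passed the test, where 65.4% of all genes tested did. Falls passed in 30.7% of all genes and rises in 34.6%. In RPF 6 fell and 1 rose, against 28.7% and 31.1% of all genes (59.8% in either direction). The falls were mostly among the 6 PRC2 genes followed here, of which 5 were lower in both assays. Of the 4 PRC1 genes, Rnf2 fell and Cbx7 rose in both assays. The median mRNA change was -0.70 over these 6 PRC2 genes and -0.043 over these 4 PRC1 genes, beside 0.026 over all genes. The median RPF changes were -0.74, 0.041 and 0.011. These shares and medians describe a chosen list and were not tested as a set. CPM of the 3 ESC and 3 EpiLC libraries did not overlap for 8 of the 10 genes in total RNA and 7 in RPF, against 70.3% and 63.1% of all genes tested.

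**Figure D1:**
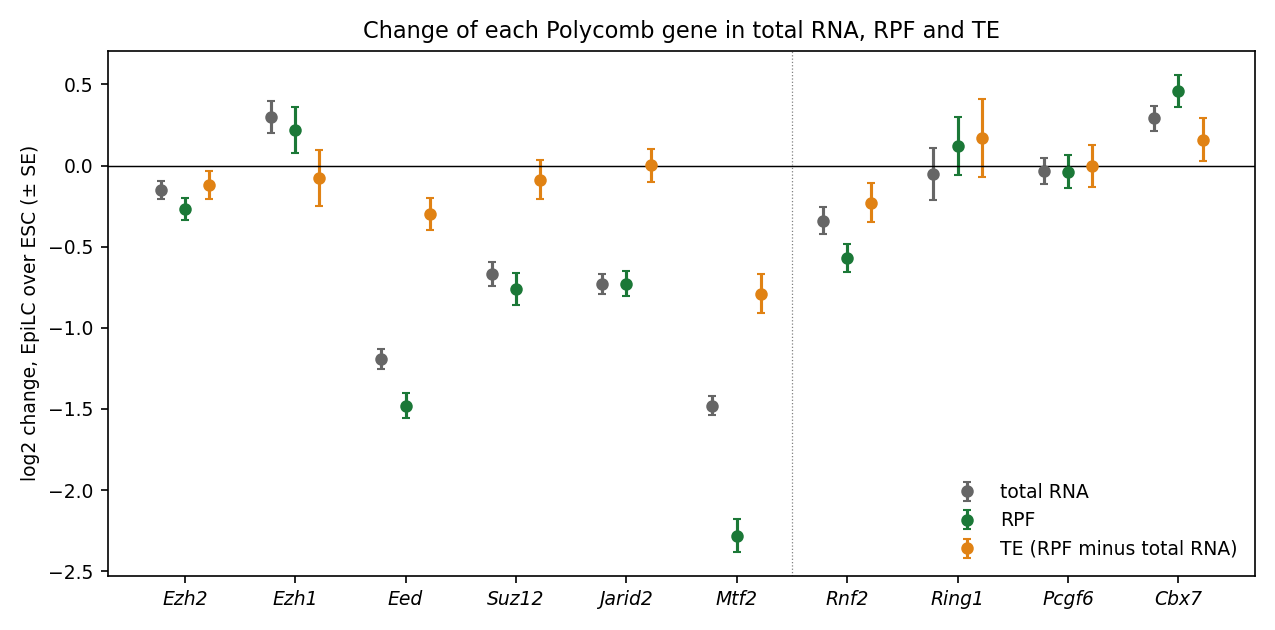
Log2 change of EpiLC over ESC for each Polycomb gene (horizontal axis, PRC2 left of the dotted line and PRC1 right of it), in total RNA (grey), RPF (green) and TE (orange), with bars of 1 SE from the fit to 12 libraries. Mtf2 lies lowest in all 3 readings, at -1.48, -2.28 and -0.79, and Cbx7 highest in RPF at 0.46.

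Mtf2 is the gene on which the translation result turns, so its starts and the sequence that was counted are shown first. RefSeq (GRCm38.p6) places starts of Mtf2 at 2 positions on the plus strand of chromosome 5. The 150 bases before each are given here with CG dinucleotides in capitals, at chr5:108065524-108065673 and chr5:108078015-108078164.
Mtf2 start 1: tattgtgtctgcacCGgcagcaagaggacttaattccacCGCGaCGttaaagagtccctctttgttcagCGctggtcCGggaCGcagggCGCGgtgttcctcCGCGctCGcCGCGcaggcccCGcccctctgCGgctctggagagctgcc
Mtf2 start 2: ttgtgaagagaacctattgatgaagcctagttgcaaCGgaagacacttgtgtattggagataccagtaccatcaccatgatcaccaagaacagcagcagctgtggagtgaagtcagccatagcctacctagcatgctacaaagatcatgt
The first stretch holds 16 CG and the second 1. Counts of Mtf2 were summed over its coding sequence, so reads from either start cannot be told apart.

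The counted sequence left out the first 45 nt of the coding sequence. For Mtf2 the coding start follows, with the 45 uncounted nt in lower case and the first 30 counted nt in capitals. It runs on the plus strand (mm10, GRCm38) from base 108065961 of chromosome 5, is interrupted by an intron after base 108065965 and goes on from base 108080825, and the first counted base is 108080865.
Mtf2 coding start: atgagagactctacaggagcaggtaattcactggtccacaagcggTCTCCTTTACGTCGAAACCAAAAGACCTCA
The counted part of Mtf2 (ENSMUSG00000029267.17, chromosome 5, 108080865 to 108106945) was 1737 nt of coding exons.

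Mtf2 encodes a Polycomb-like accessory subunit of PRC2 that binds unmethylated CpG DNA. Its total RNA was 549, 514 and 512 CPM in the 3 ESC libraries and 179, 191 and 196 CPM in the 3 EpiLC libraries. Its RPF was 264, 245 and 234 CPM in ESCs and 56.2, 49.4 and 47.1 CPM in EpiLCs. Every EpiLC library lay far below every ESC library in both assays. The mRNA change was -1.48 ± 0.06 (SE, limma adjusted p 1.42e-16), a 2.80-fold fall. The RPF change was -2.28 ± 0.10 (limma adjusted p 1.62e-15), a 4.84-fold fall.

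Footprints of Mtf2 thus fell further than its mRNA, and the TE change was -0.79 ± 0.12 (limma adjusted p 0.000599), a 1.73-fold fall of TE. It was the only one of the 10 genes to pass for TE, where 1.20% of all genes tested passed, 0.630% as falls, and by p-value it stood at rank 11 of 11750. The change did not reach the fold limit. It passed in all 23 alternative fits, with a log2 change from -0.87 to -0.64 and a highest adjusted p of 0.0101, which came with a library left out. In ESCs the log2 TE of Mtf2 was already low, at -1.05, -1.07 and -1.13 in libraries 1 to 3, at percentile 12.6 of all genes tested. In EpiLCs it was -1.67, -1.95 and -2.06, at percentile 3.80.

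Eed (ENSMUSG00000030619.9, chromosome 7, 89954937 to 89980480) encodes the core subunit that binds trimethylated lysine 27 of histone H3. Its total RNA was 291, 272 and 297 CPM in ESCs and 129, 121 and 126 CPM in EpiLCs. Its RPF was 295, 285 and 279 CPM in ESCs and 105, 107 and 96.6 CPM in EpiLCs. The groups did not overlap in either assay. The mRNA change was -1.19 ± 0.06 (limma adjusted p 1.36e-14) and the RPF change -1.48 ± 0.08 (limma adjusted p 2.72e-14). The TE change of -0.30 ± 0.10 had an unadjusted limma p of 0.00603 and did not pass (adjusted p 0.143). Eed and Mtf2 were the only ones of the 10 past the fold limit, both lower and both in each assay, where 9.70% of all genes were past it downward in total RNA and 10.6% in RPF.

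Suz12 (chromosome 11, 79993365 to 80032190), the scaffold of PRC2, fell less. Total RNA was 423, 412 and 410 CPM in ESCs and 238, 295 and 263 CPM in EpiLCs, and RPF was 263, 249 and 214 CPM against 150, 120 and 149 CPM. All EpiLC libraries were lower, with a wider spread than in ESCs for total RNA. The changes were -0.67 ± 0.07 in mRNA (limma adjusted p 1.56e-08) and -0.76 ± 0.10 in RPF (adjusted p 4.10e-07).

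Jarid2 (chromosome 13, 44823380 to 44919952) encodes an accessory subunit of PRC2 that is found in another form of the complex than Mtf2. Total RNA was 390, 361 and 406 CPM in ESCs and 247, 229 and 217 CPM in EpiLCs, and RPF was 320, 283 and 314 CPM against 187, 190 and 180 CPM. EpiLCs were lower in every library. Its mRNA and RPF changes were both -0.73, with SEs of 0.06 and 0.08 (limma adjusted p 1.81e-10 and 1.17e-08), and the TE change was 0.00023 with a 95% interval of -0.20 to 0.20.

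Ezh2 and Ezh1 encode alternative enzymes of PRC2, and Ezh2 (chromosome 6, 47530541 to 47577615) is the one of dividing cells. Ezh2 total RNA was 358, 375 and 360 CPM in ESCs and 318, 342 and 328 CPM in EpiLCs, and RPF was 331, 307 and 292 CPM against 266, 251 and 249 CPM. The groups came close to each other but did not overlap. The falls were small, -0.15 ± 0.06 in mRNA (limma adjusted p 0.0199) and -0.27 ± 0.07 in RPF (adjusted p 0.00115). The mRNA fall was not called by edgeR's quasi-likelihood test (adjusted p 0.0502), nor without ESC total RNA replicate 2 (adjusted p 0.0836) or EpiLC total RNA replicate 1 (adjusted p 0.104).

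Ezh1 (chromosome 11, 101192939 to 101217323) went the other way in total RNA. It had 43.2, 44.7 and 42.4 CPM in ESCs and 54.3, 55.0 and 50.8 CPM in EpiLCs, a change of 0.30 ± 0.10 (limma adjusted p 0.0108), which DESeq2 did not call (adjusted p 0.0714). In RPF it had 31.4, 33.6 and 30.2 CPM in ESCs and 29.2, 32.7 and 47.3 CPM in EpiLCs. A single EpiLC library stood above the rest and the groups overlapped. The RPF change was 0.22 with a 95% interval of -0.079 to 0.52 (limma adjusted p 0.197). It was 0.40 (adjusted p 0.0286) without EpiLC RPF replicate 1 and -0.038 (adjusted p 0.849) without replicate 3.

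Rnf2 (chromosome 1, 151471316 to 151478578), also named Ring1b, is the main ubiquitin ligase of PRC1 in ESCs. Total RNA was 84.1, 87.2 and 85.7 CPM in ESCs and 61.8, 70.8 and 73.7 CPM in EpiLCs, and RPF was 166, 145 and 157 CPM against 101, 100 and 113 CPM. Both assays were lower in every EpiLC library. The changes were -0.34 ± 0.08 (limma adjusted p 0.000738) and -0.57 ± 0.09 (adjusted p 4.26e-06). The TE change of -0.23 did not pass (adjusted p 0.401).

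Cbx7 (chromosome 15, 79918319 to 79932471), the Cbx protein of canonical PRC1 in naive ESCs, was the only one of the 10 to rise in both assays. Total RNA was 75, 73.5 and 71.3 CPM in ESCs and 92.1, 81.4 and 94.1 CPM in EpiLCs, and RPF was 54.5, 65.7 and 57.2 CPM against 75.9, 87.8 and 78.8 CPM. The groups did not overlap. The changes were 0.29 ± 0.08 (limma adjusted p 0.00185) and 0.46 ± 0.10 (adjusted p 0.000374). Both calls were lost when log2 CPM was corrected for GC content, with changes of 0.015 (adjusted p 0.867) and 0.13 (adjusted p 0.250).

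Ring1 (chromosome 17, 34021382 to 34024321), the paralog of Rnf2, and Pcgf6 (chromosome 19, 47034629 to 47050774), the Pcgf protein of the variant PRC1 with E2f6, Mga and Max, did not pass in any reading. Ring1 lay between 11 and 13.6 CPM in all 6 total RNA libraries and between 13.9 and 22.1 CPM in RPF, and its mRNA change had a 95% interval of -0.38 to 0.27. Pcgf6 lay between 63.8 and 69.0 CPM in total RNA and 67.7 and 81.3 CPM in RPF, and its mRNA change had a narrower interval, -0.20 to 0.13. The groups overlapped for both genes.

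GC content of the coding sequence went with direction among the 10 genes. The 5 with the lowest GC, from 42.8% in Mtf2 to 45.1% in Rnf2, all fell in both assays. Of the other 5, from 49.9% in Ezh1 to 63.1% in Cbx7, only Jarid2 fell. The median GC over all genes tested was 53.2%, and 30.7% of them fell in total RNA and 28.7% in RPF. Whether genes of low GC fell more often over all genes was not tested. After correction for GC all 6 falls still passed in both assays. The mRNA falls became larger for Mtf2 (-1.56), Eed (-1.27), Suz12 (-0.76), Rnf2 (-0.42) and Ezh2 (-0.24). In RPF the falls of these genes became smaller, at -2.21, -1.43, -0.70, -0.55 and -0.23 in that order. Jarid2 was at -0.71 in mRNA and -0.73 in RPF. The TE change of Mtf2 was -0.64 with that correction (limma adjusted p 0.00138), against -0.79 without it. TE changes of Eed, Rnf2, Ezh2 and Suz12 also lay higher with the correction, at -0.16, -0.12, 0.011 and 0.054, and did not pass.

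Levels of different genes can be compared only per length, as CPM per kb of counted sequence. In ESC total RNA the order ran from Mtf2 (302 ± 12.1 CPM per kb, SD, n = 3) and Eed (224 ± 10.4) through Suz12 (190), Ezh2 (165), Jarid2 (105), Cbx7 (103), Rnf2 (88.7) and Pcgf6 (66.7) to Ezh1 (19.0) and Ring1 (11.2). In that order all neighbours were separate in their 3 libraries except Jarid2 and Cbx7. In EpiLC total RNA Ezh2 came first (149 ± 5.5 CPM per kb), followed by Cbx7 (125), Suz12 (122) and Mtf2 (109), of which Cbx7 overlapped Suz12 and Suz12 overlapped Mtf2. Eed stood at 97.8, and the neighbours among Rnf2 (71.2), Pcgf6 (65.6) and Jarid2 (63.1) overlapped. Ezh1 (23.3) and Ring1 (10.8) stayed last.

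In RPF the order differed from total RNA. Eed was first in ESC RPF (224 ± 6.34 CPM per kb), followed by Rnf2 (161), Mtf2 (143) and Ezh2 (140), with overlaps between Rnf2 and Mtf2 and between Mtf2 and Ezh2. Then came Suz12 (111), Jarid2 (83.6), Cbx7 (83.2) and Pcgf6 (75.2), where the last 3 overlapped as neighbours, and Ring1 (14.6) and Ezh1 (13.9), which overlapped. In EpiLC RPF Ezh2 (116), Cbx7 (114) and Rnf2 (108) overlapped as neighbours at the top, while Mtf2 had moved from the third place to the eighth at 29.3 ± 2.72 CPM per kb, below Eed (80.4), Pcgf6 (72.1), Suz12 (63.9) and Jarid2 (50.8). Of these, Pcgf6 and Suz12 overlapped. Ring1 (16) and Ezh1 (15.9) overlapped in the last places.

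**Figure D2:**
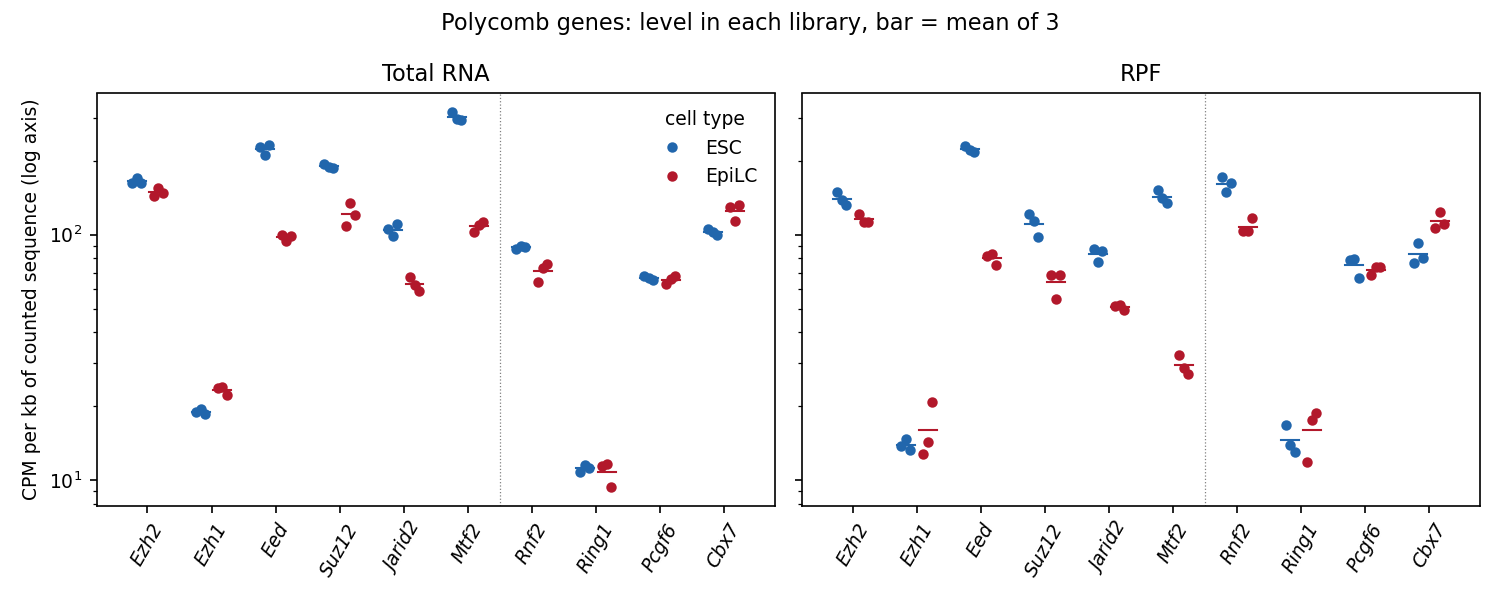
CPM per kb of counted sequence (vertical log axis) of the 10 genes in total RNA (left) and RPF (right), with a point for each library, ESC in blue and EpiLC in red, and a bar at the mean of 3 libraries. Mtf2 goes from 302 to 109 CPM per kb in total RNA and from 143 to 29.3 in RPF, while Pcgf6 and Ring1 overlap between the cell types.

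Relative to Suz12 per length, Eed RPF was 2.02-fold in ESCs and 1.26-fold in EpiLCs, and Ezh2 RPF was 1.27-fold and 1.82-fold. In total RNA the ratios moved the same way, from 1.17-fold to 0.808-fold for Eed and from 0.866-fold to 1.23-fold for Ezh2. By these means the 3 core genes did not keep one proportion in either assay. Mtf2 RPF went from 1.29-fold to 0.460-fold of Suz12, and Jarid2 RPF from 0.755-fold to 0.798-fold. These ratios are means over 3 libraries and were not tested.

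Ratios of alternative subunits were tested by exact permutation, 2-sided, for which 3 against 3 libraries cannot give a p below 0.1 (6 tests, adjusted p 0.12 where p was 0.1). The log2 ratio of Mtf2 over Jarid2 in RPF was 0.80, 0.86 and 0.65 in ESCs and -0.66, -0.87 and -0.86 in EpiLCs. Mtf2 footprints per length were above those of Jarid2 in every ESC library and below them in every EpiLC library, a difference of -1.57 (exact permutation p 0.1). In total RNA the ratio stayed above 0 in both, with means of 1.52 ± 0.10 and 0.79 ± 0.16 (SD, n = 3, difference -0.74, exact permutation p 0.1).

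The log2 ratio of Ezh2 over Ezh1 was 3.10, 3.12 and 3.13 in ESC total RNA and 2.6, 2.69 and 2.74 in EpiLC total RNA, which is 8.67-fold and 6.39-fold more Ezh2 per length. In RPF it fell from 3.34 ± 0.10 to 2.89 ± 0.40 (SD, n = 3, exact permutation p 0.1 in both assays). The RPF groups were nearly in contact, at 3.24 in the lowest ESC and 3.23 in the highest EpiLC library, and their difference of -0.45 was -0.23 without EpiLC RPF replicate 3. The difference between the cell types left Ezh2 well above Ezh1 per length. For Rnf2 over Ring1 the difference was -0.69 in RPF (exact permutation p 0.1) and -0.26 in total RNA, where the groups overlapped (exact permutation p 0.4).

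**Figure D3:**
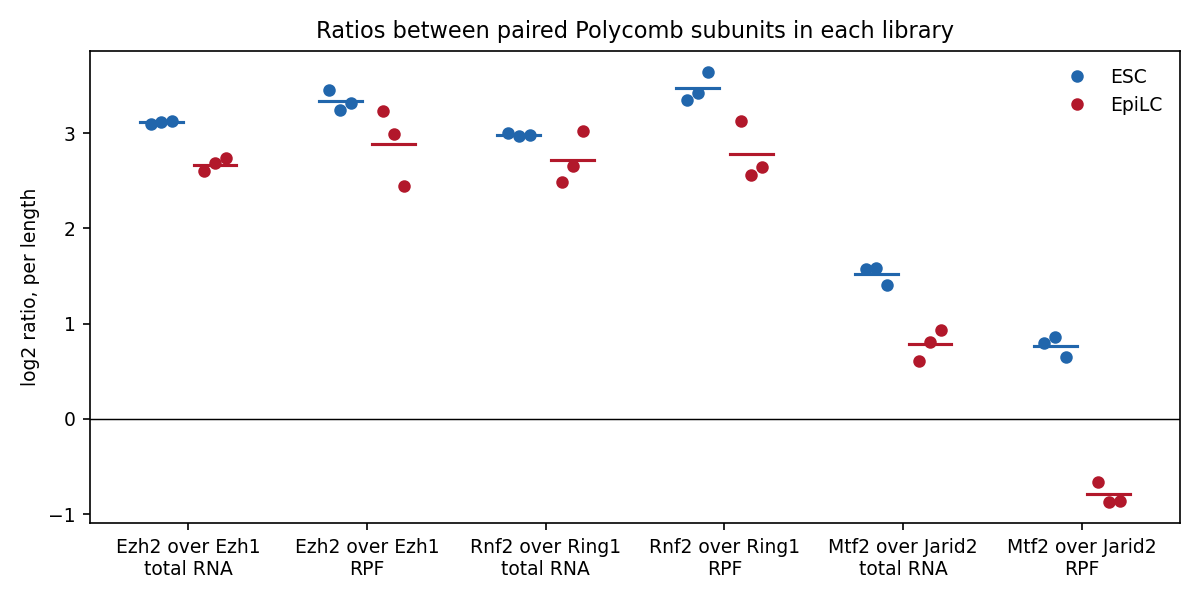
Log2 ratio of CPM per kb between paired subunits (vertical axis) in each library, ESC in blue and EpiLC in red, with bars at the mean of 3. The Mtf2 over Jarid2 ratio in RPF crosses 0, from a mean of 0.77 to -0.79, and the Rnf2 over Ring1 ratio in total RNA overlaps between the cell types.

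TE levels were described as the log2 ratio of RPF to total RNA CPM, taken between libraries of the same number. No source used here ties these numbers to shared cultures, and the SDs and counts of pairs below rest on this matching. The median over all genes tested was -0.025 in ESCs and -0.024 in EpiLCs. RPF and total RNA libraries were scaled together with TMM factors, so such medians follow largely from the scaling. A TE level is thus relative to other genes, and a general change in translation would not show. By the mean of 3 pairs Rnf2 had the highest TE of the 10 in both cell types, 0.86 ± 0.13 in ESCs (SD, n = 3, percentile 89.1) and 0.61 ± 0.10 in EpiLCs (percentile 78.3), where Ring1 (0.55 ± 0.48) was higher in 2 of 3 pairs. Mtf2 had the lowest in both, and Suz12 the next lowest, -0.78 ± 0.14 (percentile 19.9) and -0.93 ± 0.33 (percentile 17). The 6 PRC2 genes lay between percentiles 12.6 and 51.3 in ESCs and between 3.80 and 38.2 in EpiLCs. Of the PRC1 genes, Ring1 and Pcgf6 lay above the median in both cell types (percentiles 57.5 to 76.0) and Cbx7 below it (36.7 and 44.6). A TE level also carries the mappability and length biases of each assay for that gene.

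**Figure D4:**
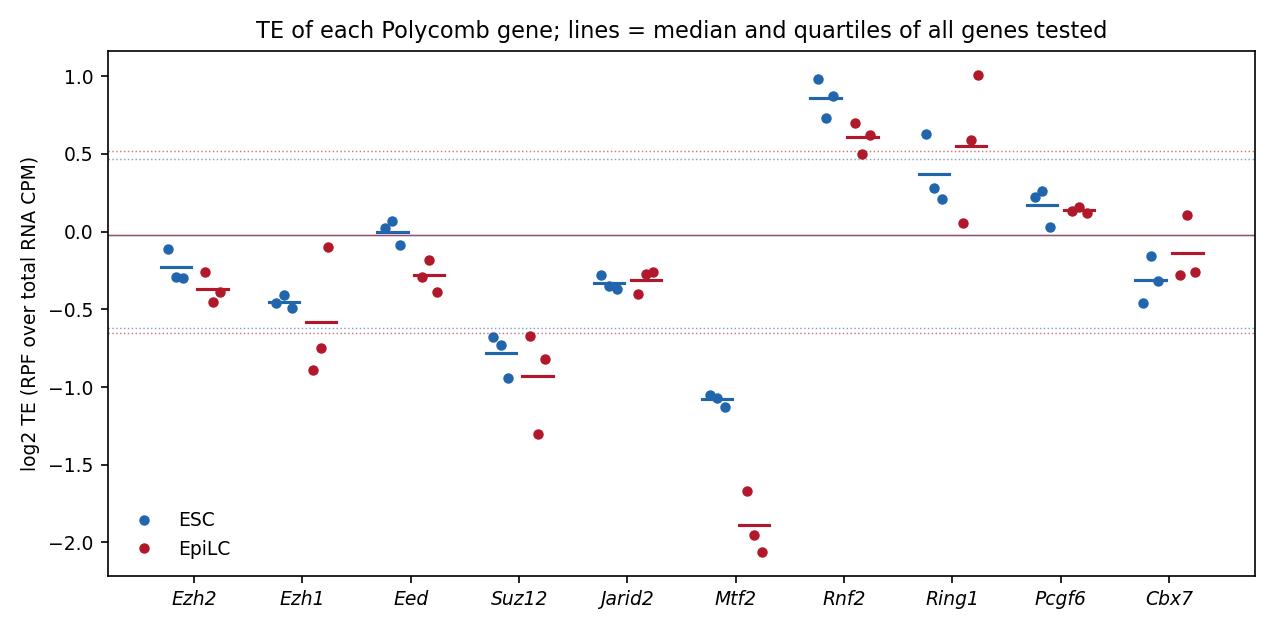
Log2 TE (RPF over total RNA CPM, vertical axis) of the 10 genes for each pair of same-numbered libraries, ESC in blue and EpiLC in red, with bars at the mean of 3 and lines at the median (solid) and quartiles (dotted) of 11750 genes. Mtf2 lies below the lower quartile in both cell types and lower in EpiLCs (-1.89 against -1.08), and the mean of Rnf2 lies above the upper quartile in both.

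The promoters of the 10 genes were searched because 5 of the 6 PRC2 genes among them fell. RefSeq windows of 250 bases before to 50 after a start (GRCm38.p6) were found for all 10 genes, 12 windows in all. They held 17 to 41 CG dinucleotides, except the second start of Mtf2 with 2, beside a median of 7 over 32851 windows. An E2F site (TTTCCCGC, TTTCGCGC, TTTGCCGC or TTTGGCGC on either strand) is a motif known from genes of dividing cells. It was found in 2 of the 12 windows, those of Ezh2 and Suz12, and in 2.26% of all windows. Each of its spellings holds CG, and the windows compared were not matched for CG content. The 30 bases around each match follow, the match in capitals, at chr6:47595009-47595038 (minus strand) and chr11:79992876-79992905 (plus strand).
Ezh2 E2F window: gggttgctgcgTTTGGCGCtcggtccggtc
Suz12 E2F window: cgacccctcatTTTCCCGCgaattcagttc
The letters CCAAT, on either strand, were in 7 of the 12 windows, from 6 of the 10 genes, and in 37.4% of all windows. The CRE letters TGACGTCA (1.79% of all windows) and the ETS letters CCGGAAG (8.86%) were in none of the 12 windows, and TATAAA (13.6%) was in 1, at the second start of Jarid2. These are matches of letters, and the data hold no measurement of binding. A link between these motifs and the falls was not tested.

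Among all genes tested, those most correlated with Mtf2 over the 12 libraries were Pias2 (Pearson r 0.997 of log2 CPM), Trip12 (0.991) and Zmym1 (0.991). Their mRNA changes were -1.02, -0.95 and -0.75 and their RPF changes -1.69, -1.16 and -1.04, all smaller in size than those of Mtf2. For Eed they were Ildr1 (0.996), Exoc6b (0.996) and Kank2 (0.995), with mRNA changes of -2.63, -1.63 and -1.08 and RPF changes of -3.42, -1.75 and -1.23. The correlation does not measure likeness in level or in size of change. The 12 points are 4 groups of 3 libraries and so are not independent.

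Another 38 genes of the Polycomb system were counted from a list, 37 of which were tested. In total RNA 16 rose and 11 fell, and in RPF 11 rose and 9 fell, with medians of 0.12 and 0.07. The shares over all genes were 34.6% higher and 30.7% lower in total RNA and 31.1% and 28.7% in RPF, so this list lay near the background in both directions. The remaining PRC2 list had 2 of 7 genes higher and 3 lower in each assay, with median changes of -0.23 in mRNA and -0.024 in RPF. The Pcgf paralogs had 2 of 5 higher and 1 lower in total RNA and none passing in RPF. Other canonical PRC1 genes had 2 of 7 higher and 2 lower in total RNA, variant PRC1 genes 5 of 12 higher and 5 lower, and PR-DUB genes, which remove the PRC1 mark, 3 of 4 higher. Of the H3K27 demethylases, both named after their values were seen, Kdm6a rose in total RNA by 0.42 (limma adjusted p 0.000154). Kdm6b rose by 0.20 (adjusted p 0.0297), a call that was lost in DESeq2 (adjusted p 0.137) and with the GC correction, where its change was -0.0054 (adjusted p 0.955). Neither passed in RPF.

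Of these genes, 7 of 37 were past the fold limit in at least 1 assay, beside 28.9% of all genes tested. Unlike Cbx7, whose rise was lost with the GC correction, Cbx8, an alternative Cbx reader of canonical PRC1, fell. Its total RNA was 5.91, 4.05 and 4.54 CPM in ESCs and 2.07, 1.28 and 1.38 CPM in EpiLCs, and the groups did not overlap. Cbx8 reached 3 CPM in ESC libraries only and Ezhip in EpiLC libraries only, so both were tested through the cell type where they were high. The changes of Cbx8 were -1.52 in mRNA and -1.71 in RPF (limma adjusted p 0.000205 and 0.000517). Epop, an elongin-binding partner of PRC2, fell, with changes of -1.51 in mRNA and -1.21 in RPF (adjusted p 6.07e-08 and 0.000112).

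Among the rises, Phc1, a PRC1 subunit that forms polymers, went from 413, 448 and 405 CPM in ESC total RNA to 766, 776 and 751 CPM in EpiLC total RNA. Its RPF went from 307, 354 and 362 CPM to 738, 770 and 831 CPM. The groups were far apart, with changes of 0.86 ± 0.06 in mRNA (limma adjusted p 1.87e-12) and 1.20 ± 0.07 in RPF (adjusted p 9.07e-14). The TE change of Phc1 was 0.34 ± 0.09 (adjusted p 0.0558), and it passed in 6 of 11 alternative fits to all libraries.

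Yaf2, a subunit of variant PRC1, rose by 1.30 in mRNA and 1.83 in RPF (limma adjusted p 8.30e-08 and 3.27e-06). Asxl3, a partner in PR-DUB, rose by 2.02 and 1.19 (adjusted p 6.01e-09 and 0.0169), and its RPF rested on 9 to 20 counts in an EpiLC library. Ezhip, an inhibitor of PRC2 enzymes, rose by 1.36 and 1.35 (adjusted p 0.00262 and 0.00831) at 0.857 to 1.26 CPM in ESC total RNA and 2.40 to 3.32 CPM in EpiLC total RNA. Phf1, a paralog of Mtf2, rose in RPF by 1.40 (adjusted p 0.0121) while its mRNA change was -0.54 (adjusted p 0.0884). Phf1 rested on 8, 9 and 9 RPF counts in ESCs and 14, 7 and 16 in EpiLCs. None of the 37 genes passed for TE in limma or in edgeR, and 1 did in DESeq2. Over all 11750 genes tested, 1.20% passed for TE in limma, and 142 genes did in edgeR and 288 in DESeq2. At such shares counts this low are near the background. An unadjusted limma p below 0.05 was found for 5 of the 37, and for 13.9% of all genes.

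**Figure D5:**
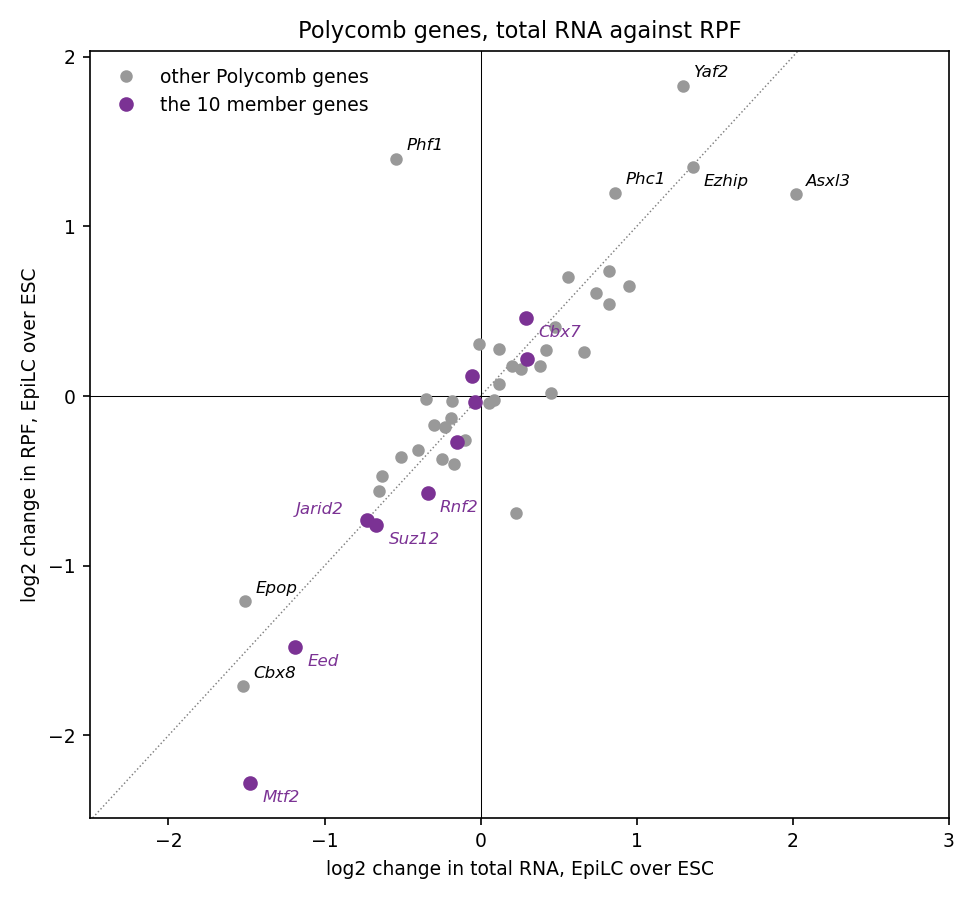
Log2 change of EpiLC over ESC in total RNA (horizontal axis) against RPF (vertical axis) for the 10 genes (purple) and 37 other Polycomb genes (grey), where the dotted line marks equal change. Mtf2 lies below the line, Cbx8 lies at -1.52 and -1.71, and Phf1 (-0.54 and 1.40) is farthest from the line.

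Genes known as Polycomb targets in ESCs were mostly below the filter. Of 39 Hox genes 2 were tested and of 22 other regulators 8, and the 51 untested ones reached at most 3.33 CPM in any library. The 6 named here reached the filter's 3 CPM in libraries of 1 cell type only, so they were tested through the cell type where they were high and no count of changes is given. Pax6, a neural regulator, had 1, 11 and 3 counts in ESC total RNA and 113, 62 and 74 in EpiLC total RNA (limma adjusted p 4.87e-08), and its RPF was at least 15.9-fold higher in EpiLCs against a floor of 3 counts per library. Nkx2-2, another neural regulator, had at most 3 counts in ESC total RNA and was at least 9.83-fold higher in EpiLC total RNA. Msx1 rose by 1.43 (adjusted p 0.0439), with groups that overlapped at 0.292 to 0.429 and 0.320 to 1.87 CPM, and the GC correction ended the call (change 1.04, adjusted p 0.123).

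Falls were seen for Hoxc12, Gsc and Hoxc13, which reached 3 CPM in ESC libraries only and so were tested through them. Hoxc12 had 120, 49 and 82 counts in ESC total RNA and 3, 0 and 0 in EpiLC total RNA, and its RPF counts were 33, 40 and 73 against 0 in all 3 EpiLC libraries, at least 8.48-fold lower. Gsc had changes of -2.62 in both assays (limma adjusted p 1.45e-05 and 8.97e-06) and Hoxc13 of -1.97 in both (adjusted p 0.000323 and 0.000635). Whether these genes changed with the Polycomb genes was not tested.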

How the data were processed

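Counts per gene were deposited by the authors as 1 table of 22462 genes and 12 libraries. Per the file headers and the study's methods, adapters were trimmed with cutadapt (1.14), uniquely mapping reads were kept with STAR (2.5.3a) on mm10 with Gencode M14, and sense reads were counted by their 5′ end with featureCounts (1.5.3) over coding sequence without its first 45 nt. Treatment of PCR duplicates is not given in the sources used here, so floors of 3 counts (0.205 to 1.12 CPM by library) cover counting error only. Intervals are 95% intervals of limma.

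Groups came from sample titles. Symbols were assigned by identifier without version, for 22385 genes and not for 77. Coordinates span the counted bases of a gene. GC content came from Gencode M21 of the same assembly. Genes with at least 3 CPM in at least 3 libraries were kept, 11750 in all. TMM factors (edgeR 4.0.16), voom and limma (3.58.1, R 4.3.3) were applied with 4 group means and no block. The study's methods name limma, the filter and the interaction, and voom was chosen for counts. edgeR's quasi-likelihood test, DESeq2 (1.42.0), limma-trend, other scalings, filters and blocks, GC correction and leaving out each library were the alternatives. Levels used log2 CPM with a prior count of 0.5.

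The members and gene lists were chosen with earlier results of these data known. Named genes were the 10 members, and other Polycomb genes with an adjusted p below 0.05 and an absolute log2 change above 1. The 3 largest called rises and falls of the target lists and the markers were named too. For each member past the fold limit in total RNA, the 3 genes with the highest Pearson r of log2 CPM were added. A gene of these lists is not reported here. Skp1 and Ezhip were found under older symbols through RefSeq synonyms.

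In chi-square comparisons no 2 libraries of a group agreed within sampling noise. On simulated data with 200 of 11750 genes changed in RPF by 1 on the log2 scale, 165 were recovered for RPF and 147 for TE, with 11 and 10 false calls. At a change of 2, 194 and 186 were recovered. All other genes were simulated without a change between the cell types, whereas 59.8% of genes passed in RPF in the data. The Benjamini-Hochberg cut-off for RPF therefore differs, and the recovery for RPF does not carry over to the calls above.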

Additional observations from a re-analysis of the deposited data

Results flagged for a closer look

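Mtf2 differed between the assays in its response. Its log2 change was -1.48 in total RNA and -2.28 in RPF, and the interaction term, a test of that difference, was -0.79 ± 0.12 (SE, limma adjusted p 0.000599). Log2 TE between same-numbered libraries was -1.05, -1.07 and -1.13 in ESCs and -1.67, -1.95 and -2.06 in EpiLCs. Every EpiLC value was below every ESC value, though the numbers are not known to name pairs. Groups of 3 libraries were too small for a test of outlying libraries.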

How the results depend on the processing

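Of 468 recomputed counts and ratios, 453 stayed within the replicate spread or within 1.5 times and 15 moved. Of 690 recomputed changes of single members, 646 kept direction and call. Another 10 lost the call, 1 gained it and 33 changed sign, none of these called. Some of these values could hardly move, so the totals do not measure robustness. A ratio within a library cancels its scaling, and leaving out a library of 1 assay bears little on a change in the other. The rises in total RNA numbered 1 in place of 2 with DESeq2, limma-trend, and the GC correction with or without the replicate block. The rise in RPF numbered 0 with the GC correction with or without that block, and 1 to 2 over fits without a library. TE rises among other Polycomb genes numbered 1 in place of 0, always Phc1, with DESeq2, RLE scaling, total counts, at least 10 counts in every library, the replicate block and the culture block, and 0 to 1 without a library. The cause was not tested.

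Signs changed for TE of Ezh2 (0.011 with both GC corrections), Suz12 (0.054 and, with the block, 0.053), Jarid2 (-0.025 and -0.023) and Pcgf6 (0.0092 with RLE, 0.027 with total counts, 0.0031 unfiltered, 0.019 with at least 10 counts, 0.0024 with GC), and for Ring1 RPF (-0.17 with both GC corrections). Without a library, ranges that crossed 0 were -0.038 to 0.40 for Ezh1 RPF, -0.32 to 0.12 for Ezh1 TE, -0.17 to 0.0089 for Suz12 TE, -0.046 to 0.060 for Jarid2 TE, -0.12 to 0.034 for Ring1 mRNA, -0.074 to 0.35 for Ring1 RPF, -0.0045 to 0.42 for Ring1 TE, -0.060 to 0.0093 for Pcgf6 mRNA, -0.14 to 0.0062 for Pcgf6 RPF and -0.086 to 0.058 for Pcgf6 TE.

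The study collected RPF with matched total RNA, but no source used here ties the replicate numbers to shared cultures. Correlations of same-numbered deviations ran from -0.182 to 0.163, so the main tests did not take the numbers as pairs. TE levels used the numbers for description only. With the replicate block, and likewise with a block on each cell type and number across both assays, the members' counts were unmoved, at 2 rises and 6 falls in mRNA, 1 and 6 in RPF and 0 and 1 in TE, and the Mtf2 TE change was -0.79 in both. Over all genes, 141 passed for TE in limma, 142 in edgeR, 288 in DESeq2 and 261 with the block. As every group holds each number, blocking or pairing by number leaves an estimated change nearly or wholly as it was. The Mtf2 TE change of -0.79 under a block is thus no check of the pairing. Nor is the log2 ratio change of -1.57 for Mtf2 over Jarid2 in RPF, taken within same-numbered pairs.

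Ring1 had the widest 95% interval of the TE changes, -0.33 to 0.67, on 54 to 118 counts in an EpiLC RPF library. Whether depth set its spread was not tested. TE changes below 1 on the log2 scale were not simulated, and 147 of 200 changes of 1 were recovered.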
